A study of Oryza sativa Japonica Group with 6 samples.

Results

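Of 10 named rice genes for cytokinin breakdown, sensing and activation (CKX3, CKX4, CKX5, CKX9, CKX11, HK3, HK4, HK5, HK6 and LOGL7), 8 could be followed in plants with altered OsSKIPa, among 17905 genes that have a probe set of their own on this Affymetrix rice array. A probe set was taken where its only gene has one of these 10 names as symbol or synonym in the gene annotation. This gave 11 of the 57258 probe sets that are not manufacturer's controls, 1 each for CKX3, CKX4, CKX5, HK3 and HK4 and 2 each for CKX11, HK5 and LOGL7. No probe set was matched to CKX9 or HK6, and both were not analysed here. All 11 passed the brightness filter, which asked for a signal over the array's median on 2 or more arrays.

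The 6 arrays analysed form 3 groups of 2: S58S, rice (Oryza sativa) overexpressing OsSKIPa, S59R, rice in which OsSKIPa is suppressed, and the wild type Zhonghua11. The series title calls OsSKIPa a splicing factor. Seeds of all groups were germinated on MS medium, and seedlings went to hydroponics at 10 days and were collected when 1 month old. Hygromycin was used to select S58S and G418 to select S59R, so the effects of genotype and selection cannot be told apart. The labels give a single code for each direction and do not say how many independent transformants it stands for. Plants were checked for OsSKIPa by real-time RT-PCR, per the labels. The promoter of the transgenes and the number of plants pooled are not given in the sources used here. The labels speak both of shoots and of whole plants. All samples are called biological replicates, with nothing said of separate cultures, so p-values measure only the spread between these samples, which may be technical, and the number of arrays limits precision. No gene name in the annotation used here was OsSKIPa or SKIPa, and many probe sets had no gene there, so OsSKIPa was not analysed here and the groups were not checked against it.

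Cytokinins are plant hormones that promote cell division in shoots, delay leaf ageing and restrain root growth. They are made as nucleotides, and enzymes of the LONELY GUY (LOG) family release the active free base, while cytokinin oxidases/dehydrogenases (CKX) break the hormone down irreversibly. Free cytokinin is sensed by membrane histidine kinases (HK), whose signal passes through phosphotransfer proteins to type-B response regulators, which are transcription factors, and these switch on the type-A response regulators, which damp the signal.

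Array medians lay between 58.4 and 66 signal units. The control for 18S rRNA read 3673.9 and 3885.3 in suppression and 4949.6 to 5450.5 on the other 4 arrays. The 3' to 5' ratio of actin, which rises as RNA degrades, was 3.43 and 3.73 in overexpression and 2.75 to 2.89 on the other 4. The same ratio of GAPDH did not separate the groups, with 2.19 and 1.89 in overexpression, 1.66 and 1.90 in suppression and 1.87 and 1.81 in the wild type. Of 7 root-preferred marker genes, the summed signal was 4749 to 5866 in overexpression, 7509 to 10724 in suppression and 6436 to 9763 in the wild type, with 1 to 3 of the genes under the median of an array and none at 0. Of the 6 that were tested, 5 had lower estimates in overexpression than in suppression and 1 (IRT1) a higher one, with a median of -1.34. By limma, AMT1-2 was lower in that comparison, beside 2.93% of all tested probe sets. IRT1 was higher, beside 3.63%. The root silicon transporter gene LSI1 read 3662.3 to 7418.7 and gave most of the sum on every array. Root-preferred transcripts were thus present in samples called shoots in part of the labels. Of 8 leaf-preferred genes, the summed signal was 49972 to 56102, 50743 to 52353 and 50040 to 54789 in the same order, of which 1 RBCS probe set gave 25955.7 to 30989.1. By limma, 4 of their 14 tested probe sets were higher in overexpression than in suppression, beside 3.63% of all tested probe sets. These 4 were CAO, GLK1 and 2 probe sets of GLK2. Lower in suppression than in the wild type were 2, beside 1.34%. These 2 were CAO (-0.77, adjusted p = 0.044) and 1 of GLK2 (-1.42, adjusted p = 0.0409). In suppression against wild type 10 of the 14 estimates were negative, with a median of -0.32. The part of tissue content, 18S signal or RNA integrity in the differences given next was not tested.

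LOGL7 was the only one of the 8 genes with a change against the wild type that passed the test (limma, adjusted p under 0.05), and it fell in suppression. LOGL7 encodes a LOG-like phosphoribohydrolase, the kind of enzyme that frees the active hormone. Its first probe set (S1_at, gene ID 4339472) read 1287.5 and 1368.2 in the wild type, 1414.7 and 1466.3 in the overexpression line and 910.3 and 930.7 in the suppression line. Every suppression array lay below every other array, and the overexpression arrays lay above those of the wild type. The mean fell from 1328 ± 57.1 in the wild type to 920.5 ± 14.4 in the suppression line (SD, n = 2 each), which is 1.44-fold, or -0.53 ± 0.11 in log2 units (SE; adjusted p = 0.0498 by limma). CAO and 1 of the 4 GLK2 probe sets, both leaf-preferred, were lower in the same comparison. That GLK2 probe set was dim in suppression (55 and 58.3, under the array medians). The brightest GLK2 probe set gave -0.36 (adjusted p = 0.141). Of the 14 leaf-preferred estimates, 10 were negative and 4 positive. The part of these differences in the fall of LOGL7 was not tested. Less RNA per cell and fewer cells that express the gene cannot be told apart in such samples. Between the lines, LOGL7 was 1.56-fold higher in overexpression than in suppression (log2 0.64 ± 0.11, adjusted p = 0.0149). Overexpression against wild type gave 0.12, with a 95% interval of -0.13 to 0.37 (adjusted p = 0.859).

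The second LOGL7 probe set (S2_at) had groups in no such order. It read 66.7 and 52.1 in the wild type, 48.7 and 75.8 in the overexpression line and 63.6 and 94.7 in the suppression line, and all groups overlapped. These values lie around the array medians, and 4 of the 6 arrays were above their own. The log2 difference of suppression from wild type was 0.38 with an interval of -0.64 to 1.39 (adjusted p = 0.711), which includes the fall seen with the first probe set. With the mean of both probe sets in place of each, the LOGL7 difference between suppression and wild type was -0.07 (adjusted p = 0.887) and that between the lines 0.15 (adjusted p = 0.697).

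**Figure D1:**
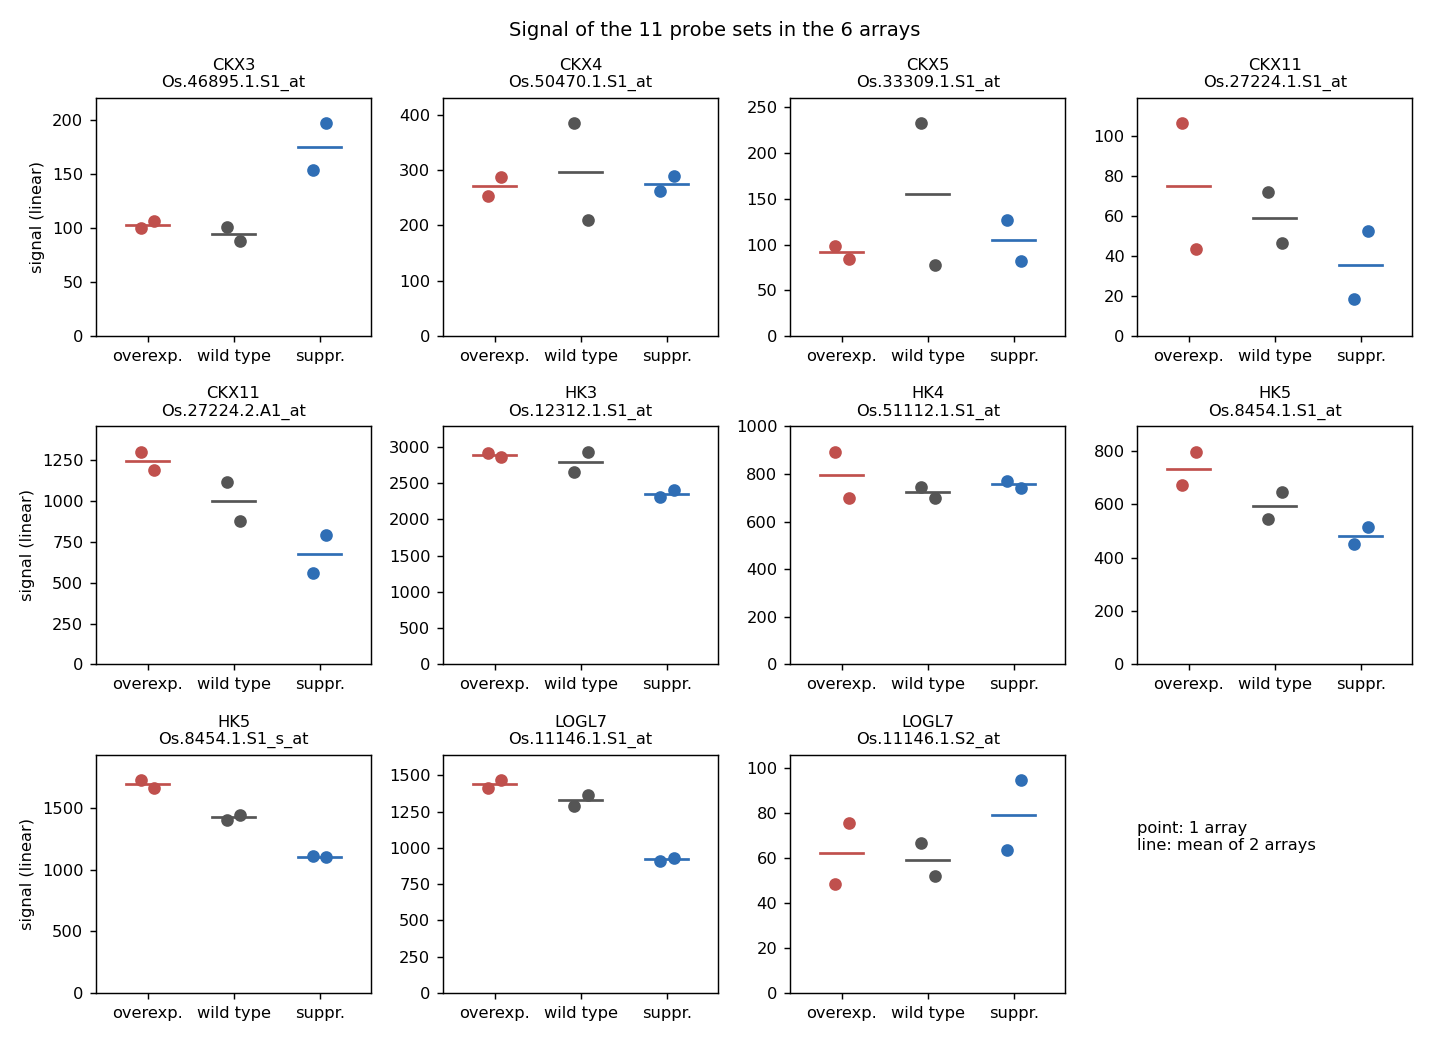
Signal on a linear scale (y axis, from 0) of each of the 11 probe sets in the overexpression, wild-type and suppression arrays (x axis), with a point for each array and a line at the mean of 2 arrays. LOGL7 (S1_at) reads 910.3 and 930.7 in suppression and at least 1287.5 elsewhere, and CKX3 reads 153.7 and 196.8 in suppression and at most 106.3 elsewhere.

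Among the receptors, HK5 differed between the lines and HK4 showed no detectable difference. HK5 is a histidine kinase that binds cytokinin outside its signalling domain and starts the phosphorelay. Its probe set with the suffix s_at (gene ID 4348447) read 1408.6 and 1444.1 in the wild type, 1728.2 and 1663.1 in the overexpression line and 1111.4 and 1103.2 in the suppression line. No array of one group reached into the range of another. HK5 was thus 1.53-fold higher in overexpression (1696 ± 46.0) than in suppression (1107 ± 5.80; SD, n = 2 each), a log2 difference of 0.61 ± 0.10 (adjusted p = 0.0149). Against the wild type neither line passed. Overexpression gave 0.25 (interval 0.01 to 0.48, adjusted p = 0.692) and suppression -0.36 (interval -0.60 to -0.13, adjusted p = 0.12).

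The other HK5 probe set, which may share sequence with the first, had the same order of groups. It read 544.8 and 644.9 in the wild type, 670.8 and 795.8 in the overexpression line and 449.9 and 514.2 in the suppression line. The lines differed by 0.60 ± 0.16 on the log2 scale, which missed the threshold (adjusted p = 0.0633). The mean of both probe sets gave 0.61 (adjusted p = 0.0269).

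HK3, a second receptor of this family, read 2652.5 and 2930.4 in the wild type, 2911.2 and 2863.2 in the overexpression line and 2304.8 and 2407.6 in the suppression line. The suppression arrays were the lowest, and the other groups overlapped. The log2 difference of suppression from wild type was -0.24 (interval -0.46 to -0.02) and that of overexpression from suppression 0.29 (interval 0.07 to 0.51), with adjusted p of 0.241 and 0.115. HK4, another receptor, read 744.9 and 701.4 in the wild type, 893.1 and 701.5 in the overexpression line and 772.3 and 740.5 in the suppression line. All 3 groups overlapped at HK4, and the intervals of its differences from the wild type ran from -0.21 to 0.47 in overexpression and from -0.27 to 0.40 in suppression.

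The estimates of the oxidase genes did not share a direction. CKX11 was the oxidase gene with a called difference between the lines. Its product, like that of each CKX gene, degrades cytokinin, and CKX11 is known in rice for its part in leaf senescence. Its probe set A1_at (gene ID 4345764) read 1118 and 877.9 in the wild type, 1299.8 and 1189.6 in the overexpression line and 557.5 and 790.8 in the suppression line. The 3 groups did not overlap. CKX11 was 1.87-fold higher in overexpression (1245 ± 77.9) than in suppression (674.2 ± 165; SD, n = 2 each), a log2 difference of 0.90 ± 0.19 with adjusted p = 0.0313. The difference from the wild type did not pass in overexpression (0.33, interval -0.11 to 0.76, adjusted p = 0.772) or in suppression (-0.57, interval -1.01 to -0.14, adjusted p = 0.17).

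A dim second CKX11 probe set (S1_at) read 72 and 46.4 in the wild type, 106.5 and 43.7 in the overexpression line and 18.7 and 52.7 in the suppression line. Only 2 of its 6 values were above the array median, and its groups overlapped. Its difference between the lines was 1.03 with an interval of -0.49 to 2.56 (adjusted p = 0.398). The mean of both CKX11 probe sets gave 0.97 (adjusted p = 0.15).

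In both comparisons with suppression, CKX3 had estimates opposite in sign to those of CKX11. In overexpression against wild type CKX3 gave 0.12 (interval -0.51 to 0.75), of the same sign. CKX3 read 100.7 and 88.4 in the wild type, 99.9 and 106.3 in the overexpression line and 153.7 and 196.8 in the suppression line. Both suppression arrays lay above the other 4. The log2 difference of suppression from wild type was 0.86 with an interval of 0.23 to 1.49, the highest estimate among the members in that comparison, and it did not pass after adjustment (unadjusted p = 0.0135, adjusted p = 0.157). Overexpression against suppression gave -0.74 (interval -1.37 to -0.11, adjusted p = 0.154).

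CKX4 and CKX5 showed no called difference, and their wild-type arrays lay far apart. CKX4, known in rice for a part in crown root formation, read 384 and 209 in the wild type, 253.4 and 286.8 in the overexpression line and 261.1 and 288.3 in the suppression line. CKX5 read 232.4 and 77.4 in the wild type, 98.4 and 84.7 in the overexpression line and 126.3 and 82.5 in the suppression line. For both genes wild-type replicate 1 was the highest array and replicate 2 the lowest, so all values of the transgenic lines lay between them. Suppression against wild type gave -0.05 (interval -0.68 to 0.59) for CKX4 and -0.39 (interval -1.52 to 0.75) for CKX5, and without wild-type replicate 1 these estimates turned to 0.39 and 0.39. Differences of these sizes were not detectable with 2 arrays a group.

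**Figure D2:**
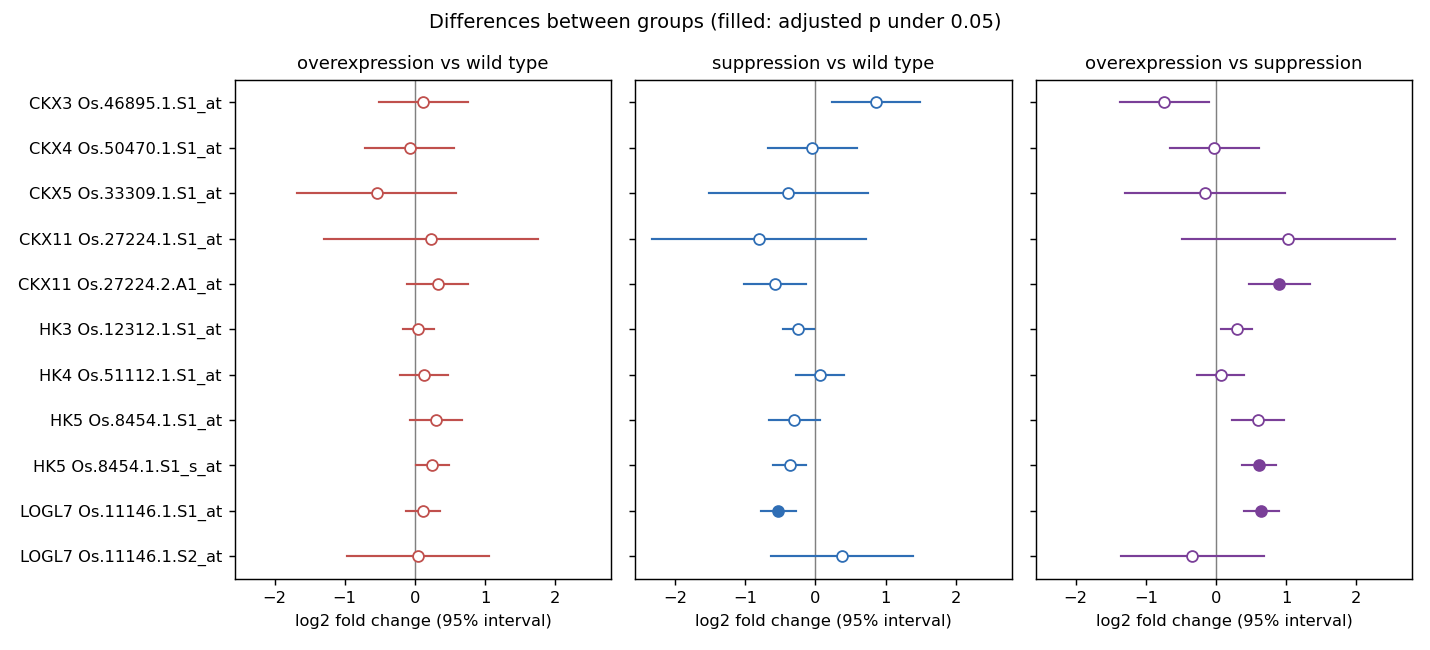
Log2 fold change (x axis) of the 11 probe sets (y axis) in the 3 comparisons, with bars for 95% intervals and filled points for an adjusted p under 0.05. No point is filled in overexpression against wild type, 1 (LOGL7, -0.53) in suppression against wild type and 3 (CKX11 0.90, HK5 0.61, LOGL7 0.64) in overexpression against suppression.

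Counted over all 11 probe sets, 0 passed in overexpression against wild type by limma, where 0.0494% of the 30366 tested probe sets passed (0.0395% higher and 0.00988% lower). Before adjustment, 1 of the 11 (HK5, s_at) had p under 0.05, beside 7.11%. In suppression against wild type 1 passed (LOGL7, lower), beside 2.3% of all tested (0.955% higher and 1.34% lower). Before adjustment, p lay under 0.05 for 5 members, beside 17.8%. Between the lines 3 passed, all higher in overexpression (LOGL7, HK5 and CKX11), beside 6.56% of all tested (3.63% higher and 2.93% lower). Before adjustment it lay under 0.05 for 6 members, beside 23.1%. The median log2 fold change of the members was 0.12, -0.30 and 0.29 in the 3 comparisons, against -0.01, -0.02 and 0.01 over all tested probe sets. With so few members, no more is read from these shares.

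Groups did not overlap for 4 of the 11 probe sets in overexpression against wild type (38.1% of all tested), for 6 in suppression against wild type (48.7%) and for 6 between the lines (53.5%), which is near the background. In 4 probe sets of 3 genes (LOGL7, both of HK5 and CKX11) the overexpression arrays lay above the wild type and the wild type above suppression with no overlap, an order held by 5.12% of all tested probe sets. The reverse order was held by 0 of the 11 and by 4.6% of all tested. This order was picked out after the values were seen. Both comparisons with the wild type use the same 2 wild-type arrays.

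Of the 4 called differences, that of LOGL7 from the wild type was the least stable. It lost its call in each of the 6 fits that left out 1 array (adjusted p 0.077 to 0.239, estimates -0.57 to -0.48), also where the array left out belonged to the overexpression line, and kept it in 3 of 16 alternatives in all. The LOGL7 difference between the lines kept its call in 9 of 16, that of HK5 in 10 and that of CKX11 in 11. LOGL7 (0.62 to 0.67) and HK5 (0.59 to 0.64) lost it without any 1 array of either transgenic line, with adjusted p up to 0.0898 and 0.0731. CKX11 (0.65 to 1.15) lost it without either overexpression array or suppression replicate 1, with adjusted p up to 0.132. None of the 4 changed direction in any of the alternatives.

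**Figure D3:**
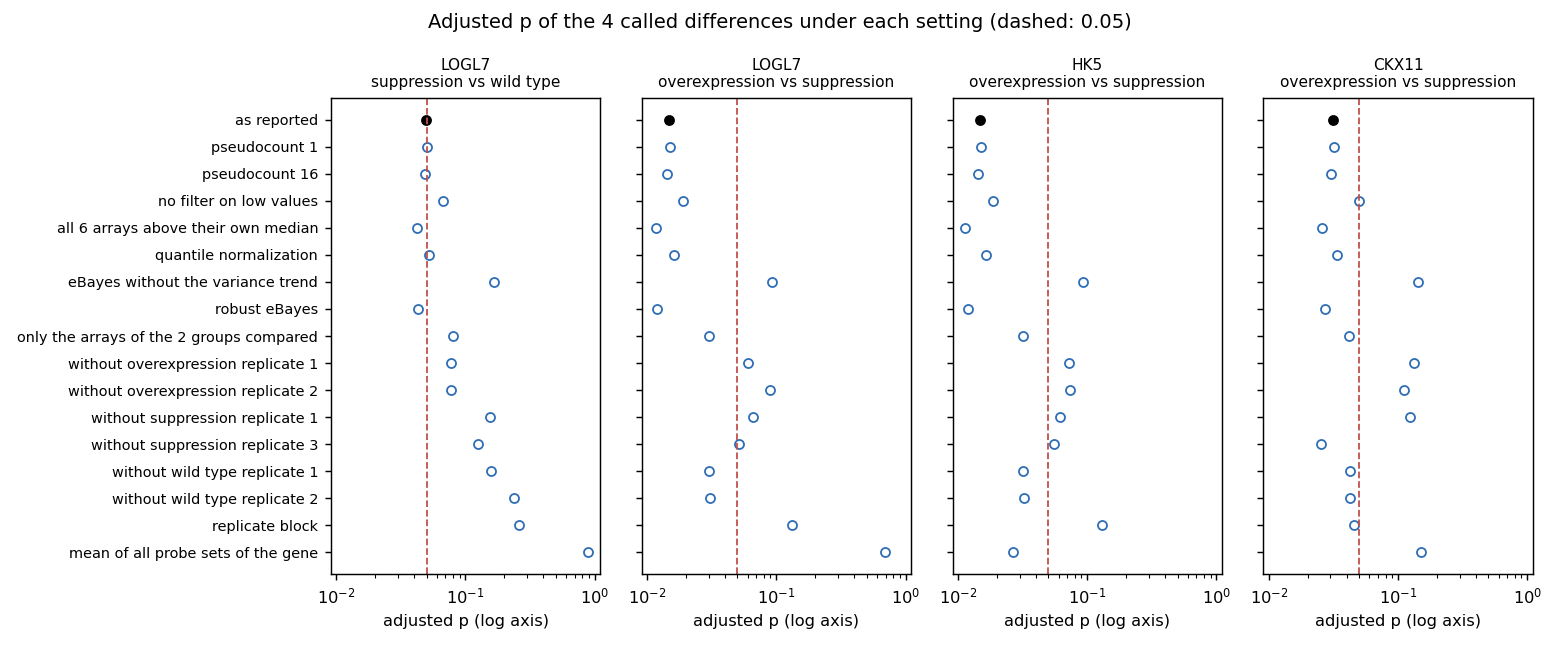
Adjusted p (x axis, log scale) of the 4 called differences as reported (filled) and under each of 16 alternatives (open; y axis), with a dashed line at 0.05. LOGL7 against the wild type sits at 0.0498 as reported and reaches 0.887, whereas CKX11 stays between 0.0255 and 0.15.

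Of 79 names fixed for other genes of the pathway, 25 led to a probe set, for 23 genes and 25 probe sets, and 22 of these were tested. Of these, 0 passed by limma in any of the 3 comparisons, beside 0.0494%, 2.3% and 6.56% of all tested probe sets. Unadjusted p lay under 0.05 for 1 in overexpression against wild type (7.11% of all tested), 6 in suppression against wild type (17.8%) and 4 between the lines (23.1%). The lowest adjusted p was 0.662, 0.0818 and 0.117 in the same order. No probe set was matched to a gene of cytokinin synthesis (IPT, CYP735A) or to the transport genes listed.

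Of the 7 other activation genes tested, LOGL5 came nearest to the threshold. It read 382.1 and 517.3 in the wild type, 559.4 and 514.5 in overexpression and 863.5 and 677.4 in suppression, where both arrays were above the other 4. The log2 difference of suppression from wild type was 0.78 ± 0.19 (adjusted p = 0.0818), opposite in sign to that of LOGL7. LOG, the founding gene of the family, read 2190.7 and 1604.4 in the wild type and between 1220.4 and 1597.3 in the transgenic arrays. Its differences were -0.38 in overexpression and -0.42 in suppression (adjusted p = 0.732 and 0.28). The 7 estimates in suppression ran from -0.42 to 0.78, with a median of 0.09.

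Type-A response regulators are primary response genes of cytokinin, and 6 were tested. In suppression against wild type all 6 estimates were above 0, between 0.20 and 0.92 with a median of 0.48, but 0 passed by limma, beside 2.3% of all tested probe sets, and 3 had an unadjusted p under 0.05, beside 17.8%. RR4 read 579.8 and 574.1 in the wild type, 539.3 and 696.4 in overexpression and 748.3 and 890.8 in suppression (0.50 ± 0.16, adjusted p = 0.169). RR1 read 1099.5 and 1045.7 in the wild type, 1006.9 and 1337.6 in overexpression and 1279.4 and 1693.8 in suppression (0.46 ± 0.18, adjusted p = 0.232). For 5 of the 6, RR1 and RR4 among them, the suppression arrays lay above the wild type. Such groups did not overlap in 48.7% of all tested probe sets. For RR1 1 overexpression array reached into the range of suppression. In overexpression against wild type the 6 estimates ran from 0.02 to 0.71, with a median of 0.14. The highest estimate in both comparisons was that of RR5 (0.92 ± 0.51 in suppression, adjusted p = 0.403). RR5 was dim, with values of 27.5 to 91, and lay above the array median on 2 of 6 arrays.

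Among 4 type-B regulators the estimates in suppression ran from -0.26 to 0.11. RR23 had the lowest unadjusted p, with 1062.9 and 1046.8 in the wild type, 1138.4 and 1082.4 in overexpression and 865.8 and 892.3 in suppression (-0.26 ± 0.11, adjusted p = 0.27), and its groups had the order seen in LOGL7 and HK5. RR22 gave -0.14 (adjusted p = 0.598). The receptor-like kinase gene CHARK, whose product carries a cytokinin-binding CHASE domain, read 338 and 308.8 in the wild type, 250.1 and 203.9 in overexpression and 258.5 and 291.8 in suppression, with differences of -0.51 and -0.23 (adjusted p = 0.662 and 0.575). The phosphotransfer genes PHP5 (0.24, adjusted p = 0.354) and AHP1 (-0.15, adjusted p = 0.457) did not pass in suppression.

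**Figure D4:**
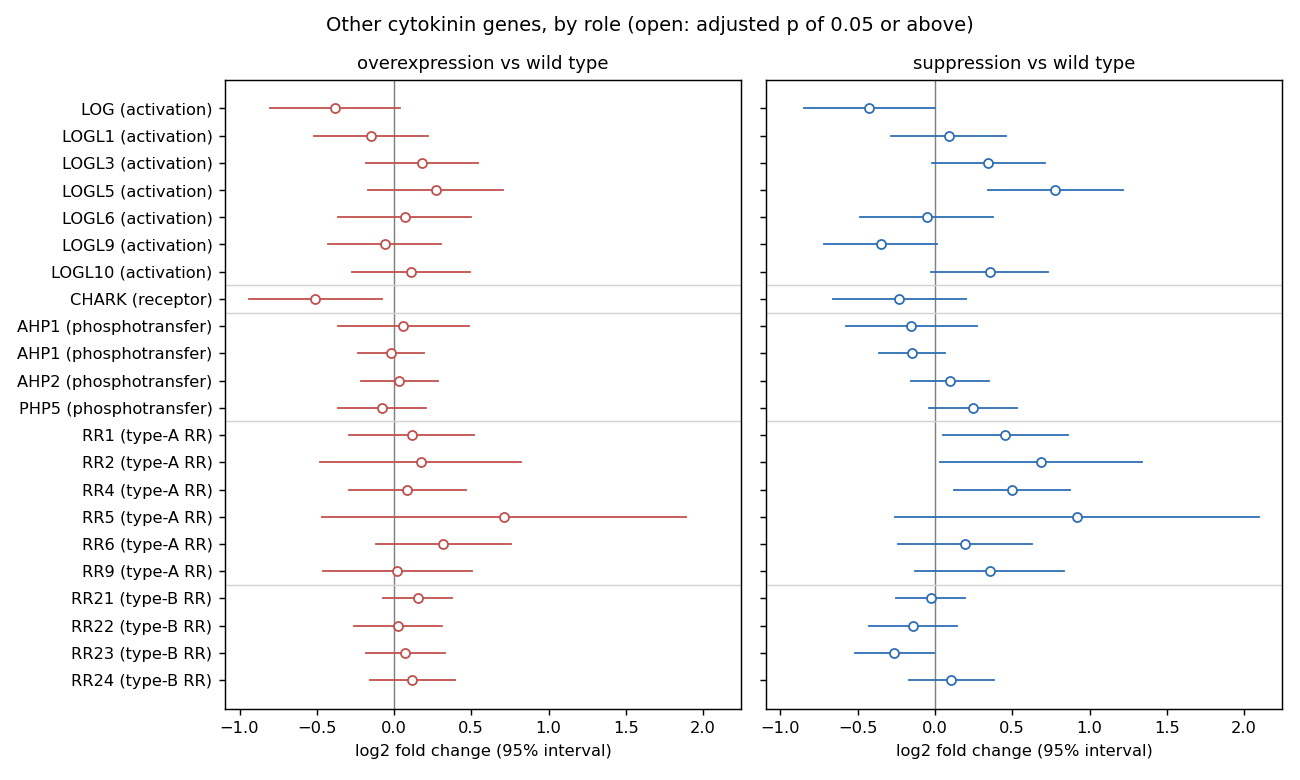
Log2 fold change against the wild type (x axis) of 22 tested probe sets of other cytokinin genes grouped by role (y axis; RR, response regulator), with bars for 95% intervals. Every point is open (adjusted p of 0.05 or above), and the 6 type-A regulators lie between 0.20 and 0.92 in suppression. The 0.92 is that of RR5, a dim probe set.

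For 1 probe set of each role, that with the highest mean signal, the named genes with the most similar profile over the 6 arrays were sought by Pearson's r of log2 values among 2770 probe sets. These r describe 6 arrays in 3 groups, and other probe sets reach high values too. For LOGL7 they were OsPP2C45, of the type 2C protein phosphatase family (0.997), PHOT1A, a blue-light receptor gene (0.996), and CDKG-2 (0.992), and 168 of the 2770 had r over 0.9. PHOT1A read 3009.2 and 3175.4 in the wild type, 3906.8 and 4023.1 in overexpression and 1367.7 and 1494.7 in suppression. For HK3 they were the phytochrome gene phyC (0.995), GH3.7 (0.987) and the sucrose synthase gene SUS4 (0.986), with 107 over 0.9. For CKX11 they were PAL06 (0.993), OsTrx18 (0.992) and actin-6 (0.988), with 78 over 0.9.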

How the data were processed

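The deposited table gives signal intensity, not log transformed, for 57381 probe sets on 6 arrays. Judged from these deposited intensity values, each array had been scaled to 1 trimmed mean (500.06, with 2% trimmed at either end). Per the labels' protocols, RNA was extracted with TRIzol and 6 µg was labelled with biotin. The sources used here do not give the summarising software.

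A pseudocount of 3.3, the 10th percentile of the table, was added before taking log2, so folds of dim probe sets are understated. Leaving out 123 controls, 30366 probe sets passed the filter. Tests used limma 3.58.1 (R 4.3.3; lmFit and eBayes with a variance trend, 3 residual and 5.21 prior degrees of freedom) on all 3 groups together, two-sided, with Benjamini-Hochberg adjustment over every probe set tested and a threshold of 0.05. The script was tested on simulated data.

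Names came from GEO's platform annotation and a RefSeq gene table: 22436 probe sets had 1 gene, 95 several and 34727 none here. AHP1 and AHP2 share the name HP1 and were told apart by gene. RR33 was listed as type-B, but its other name follows the type-A style. The members, lists and tests were chosen with earlier results of these data known. Every member probe set was named, and of other cytokinin genes those past the threshold or, where a role had none, up to 2 per role by unadjusted p in suppression. RR5 was named besides, because its dim signal gave the highest type-A estimates. Similar profiles were named for the brightest member probe set of each role, leaving out locus numbers and, chosen after seeing the data, clone-like names. Alternatives changed the pseudocount, filter, scaling, variance model, arrays in the fit and probe set averaging, added a replicate block or left out 1 array.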

Additional observations from a re-analysis of the deposited data

Results flagged for a closer look

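The members CKX11, HK5 and LOGL7 were picked out because their levels differed between the overexpression and suppression lines, by the test of that difference itself. CKX11 (A1_at) differed by 0.90 ± 0.19 on the log2 scale (SE, limma adjusted p = 0.0313). HK5 (s_at) differed by 0.61 ± 0.10 (adjusted p = 0.0149) and LOGL7 (S1_at) by 0.64 ± 0.11 (adjusted p = 0.0149). Each was higher in both overexpression arrays than in both suppression arrays. The other probe set of each gene did not pass by limma (adjusted p = 0.398, 0.0633 and 0.705 in this order). That of LOGL7 was opposite in sign (-0.34). The lines also differ in selection drug. Their 18S rRNA signal (3673.9 to 3885.3 in suppression and 4992.2 to 5450.5 in overexpression), actin 3' to 5' ratio and summed root-preferred signal did not overlap. Most of that sum was LSI1. Of the 6 root-preferred probe sets tested, 5 had lower estimates in overexpression than in suppression and 1 (IRT1) a higher one. The GAPDH 3' to 5' ratio did overlap (1.89 to 2.19 in overexpression and 1.66 to 1.90 in suppression). By limma, 4 of 14 leaf-preferred probe sets (CAO, GLK1 and 2 of GLK2) were higher in overexpression, beside 3.63% of all tested. The part of these features in the 3 differences was not tested. Groups of 2 arrays are too small for a check of single outlying arrays.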

How the results depend on the processing

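The number of calls depended on the processing. Probe sets called over the whole array were 15, 698 and 1992 in overexpression against wild type, suppression against wild type and overexpression against suppression. Without the variance trend they were 0, 26 and 69, and 0 of the members passed in any comparison. With only probe sets above the median on all 6 arrays, the first count was 3. With no filter the counts in suppression against wild type and between the lines were 425 and 1255. With 1 array left out the ranges were 5 to 36, 171 to 583 and 463 to 1410, and those of member calls 0 to 0, 0 to 0 and 0 to 3; a lone array in a group was taken to vary as the rest do. Counts moved by over 1.5 times without overexpression replicate 1 (5) or wild-type replicate 2 (36) in the first comparison, with any of the wild-type or suppression arrays left out (171 to 366) in the next, and without any overexpression or suppression array (463 to 1018) between the lines. The 1 member call in suppression (LOGL7) became 0 with a pseudocount of 1 (adjusted p = 0.0505), no filter (0.0671), quantile normalization (0.0519) or only the arrays of the 2 groups compared (0.0802). These p-values lie close to the threshold, but those of other alternatives that lost the call do not all. Without the variance trend the adjusted p was 0.166, and with the mean of both LOGL7 probe sets it was 0.887.

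Overexpression and wild type share replicate numbers 1 and 2, but the labels give them no meaning, and deviations of same-numbered arrays were not correlated (r = -0.02 across probe sets). With the replicate number as a block, which leaves 1 residual degree of freedom, the counts were 11, 99 and 319, and 0, 0 and 1 member probe sets were called (the 1 was CKX11). Suppression has replicate numbers 1 and 3, and no other array has number 3, so the block fits that array exactly. Both comparisons with suppression in the block fit thus rest on suppression replicate 1 alone, including their counts and the CKX11 call. In the block fit HK4 gave -0.013 in suppression and CKX4 0.22 between the lines, both opposite in sign to the values reported. Leaving out suppression replicate 3 with no block gave 0.095 for HK4 in suppression and 0.046 for CKX4 between the lines. The part of replicate number in the block fit values was not tested. The mean of both LOGL7 probe sets (-0.074 in suppression, 0.15 between the lines) was opposite in sign to the dim one. With 1 array left out, estimates that passed no test changed sign for CKX4 (-0.51 to 0.36, -0.48 to 0.39 and -0.11 to 0.063 in the 3 comparisons), CKX5 (-1.32 to 0.23, -1.16 to 0.39 and -0.45 to 0.14), HK4 (-0.043 to 0.30 in overexpression against wild type and -0.11 to 0.24 between the lines) and, in overexpression against wild type, the dim CKX11 probe set (-0.38 to 0.84), HK3 (-0.021 to 0.12) and the dim LOGL7 probe set (-0.26 to 0.35). The cause of these changes was not tested.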

Other observations

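The 3 remaining probe sets of other cytokinin genes lay below the array median on all 6 arrays and were left untested. The oxidase gene CKX1 read 0.6 to 23.1, RR33 read 3 to 32.3, and a second probe set of LOG read 5.7 and 3 in overexpression, 44.4 and 12.9 in suppression and 41.3 and 37.8 in the wild type. Values at this level have no settled order.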
